A study of Mus musculus with 18 samples.

Results

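Genes of the Wnt pathway were followed through the first 6 days of neural differentiation (ND) of mouse embryonic stem cells (mESCs) with and without Zeb2, a zinc-finger transcription factor that mostly acts as a repressor. The set was chosen by gene symbol: the Wnt ligands, the Frizzled (Fzd) receptors, the co-receptors Lrp5 and Lrp6, the secreted inhibitors of the Dkk and Sfrp families and Notum, the R-spondins with their receptors Lgr4, Lgr5 and Lgr6, the factors Lef1 and Tcf7, Tcf7l1 and Tcf7l2, and the targets Axin2, Sp5 and Nkd1. By this rule 33 of the 10965 genes in the deposited table were members. RefSeq lists 55 protein-coding mouse symbols that match the rule, and the 22 that are not in this table, which holds only genes that passed the filter of the study, were not analysed here: Wnt2, Wnt2b, Wnt3, Wnt5a, Wnt5b, Wnt7a, Wnt8b, Wnt9b, Wnt10a, Wnt10b, Wnt11, Wnt16, Fzd9, Lrp5, Dkk2, Dkk4, Sfrp4, Rspo2, Rspo3, Lgr5, Lgr6 and Tcf7l2.

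RNA was sequenced from 18 libraries in 6 groups of 3, control (Ctrl, genotype Zeb2 fl/fl) and Zeb2 knockout (KO, genotype Zeb2 -/-) cells of strain CD1 at d0, d4 and d6, and the methods describe the 3 libraries of a stage as independent experiments. At d0 the cells were ground-state mESCs in 2i + LIF, a serum-free N2B27 medium with leukemia inhibitory factor and 2 kinase inhibitors, PD0325901 against MEK at 0.4 µM and CHIR99021 against GSK3 at 1 µM per the labels, while the methods name other concentrations. From d0 to d4 they grew as embryoid bodies (EBs) in medium with 15% serum and without 2i + LIF, and from d4 to d6 in N2B27 with 500 nM retinoic acid. The methods describe 2 derivations with several lines. In the first, KO lines were made from Zeb2 fl/fl lines of CD1 mice by transient expression of Cre recombinase. In the other, KO lines came from crosses with Zeb2 +/- mice on a mixed background. The genotype and strain given above match the first. The lines behind these libraries are not given in the sources used here, so that genotype and line cannot be told apart. EBs are mixtures of cell types, and in such bulk samples fewer cells of a type and less RNA per cell cannot be told apart.

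Wnt proteins are secreted signals that bind a Frizzled receptor together with Lrp5 or Lrp6. Binding stops a complex around Axin, Apc and GSK3 from degrading β-catenin, which then enters the nucleus and, with TCF/LEF factors, switches on target genes such as Axin2, Sp5, Nkd1 and Notum, several of which in turn restrain the signal. CHIR99021 blocks GSK3 and so mimics a Wnt signal inside the cell, which in 2i relieves the repression of pluripotency genes by Tcf7l1. In the early embryo Wnt signals pattern the primitive streak and, later, the posterior and dorsal neural tube.

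Levels are given in TPM, a unit of transcript abundance that corrects for gene length and for the depth of a library, with the values of replicates 1, 2 and 3 in that order. The deposited values carry 1 added read per gene, and read numbers are given without it. A gene without reads is therefore listed above 0, at a value that depends on its length and the depth. Among member values without reads this ran from 0.0567 TPM (Wnt4) to 0.148 TPM (Wnt1). Differences are log2 fold changes on log2(TPM + 1), Zeb2 KO minus Ctrl or the later minus the earlier day, with the standard error (SE) and the Benjamini-Hochberg adjusted p of limma over all 10965 genes. A gene is called changed at an adjusted p below 0.01. The libraries hold 9622622 to 15617675 reads on these genes. Zeb2 itself was at 7.53 to 7.81 TPM in Ctrl and 0.594 to 0.733 TPM in Zeb2 KO at d6, and at 0.123 to 0.138 and 0.0171 to 0.0274 TPM at d0. Sfrp1 and Nkd1 lie on chromosome 8, whose genes had a median log2 difference of 0.33 at d0, against -0.07 over all genes. At d4 and d6 the chromosome 8 median was -0.20 and -0.15, against -0.16 and -0.14 over all genes. Chromosome 12, which holds none of the members, had a median of 0.36 at d0 and -0.18 at both d4 and d6. The part of the chromosome 8 shift in the values of Sfrp1 and Nkd1, within and between days, was not tested. Nor was any bearing of the 2 shifts on other d0 values.

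Between Zeb2 KO and Ctrl, the Wnt genes that changed were mostly lower in Zeb2 KO, at each of the 3 days. At d0, 10 of the 33 were called, 1 higher and 9 lower, where 27.0% of all genes tested were called (10.6% higher, 16.4% lower). At d4, 17 were called, 1 higher and 16 lower, against 45.5% of all genes (12.7% higher, 32.7% lower). At d6, 25 were called, 7 higher and 18 lower, against 52.3% of all genes (17.9% higher, 34.3% lower). Counted by size, 17 members were called with an absolute log2 difference above 1 at d6, where 15.5% of all genes were. The corresponding counts were 5 members at d0 (4.37% of all genes) and 6 at d4 (9.71%). The table holds only genes with at least 5 TPM in at least 3 libraries and without the 20% least variable. Wnt1, Wnt6 and Dkk1 reached 5 TPM only in Ctrl at d6, and Lef1 only in Zeb2 KO at d6. Wnt3a and Sfrp5 reached it only in Ctrl, at d4 and d6. Such members entered the table through the groups where they were high. Adjusted p values and recomputed calls of comparisons with those groups therefore describe these members without testing them. The counts above likewise describe the members without testing them. Over the members the median log2 difference at d0, d4 and d6 was -0.23, -0.48 and -0.51, and over all genes -0.07, -0.16 and -0.14. Part of the excess of lower values was shared by all genes and depended on scaling: with median-ratio factors the median of all genes moved to 0.00 at d4 and 0.01 at d6, the share of higher genes among all called rose from 28.0% to 49.6% at d4 and from 34.3% to 49.9% at d6, and the members called were 2 higher and 11 lower at d4 and 7 higher and 15 lower at d6. With quantile normalization they were 2 higher and 9 lower at d4 and 7 higher and 16 lower at d6. No member that was called changed sign with either scaling.

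**Figure D1:**
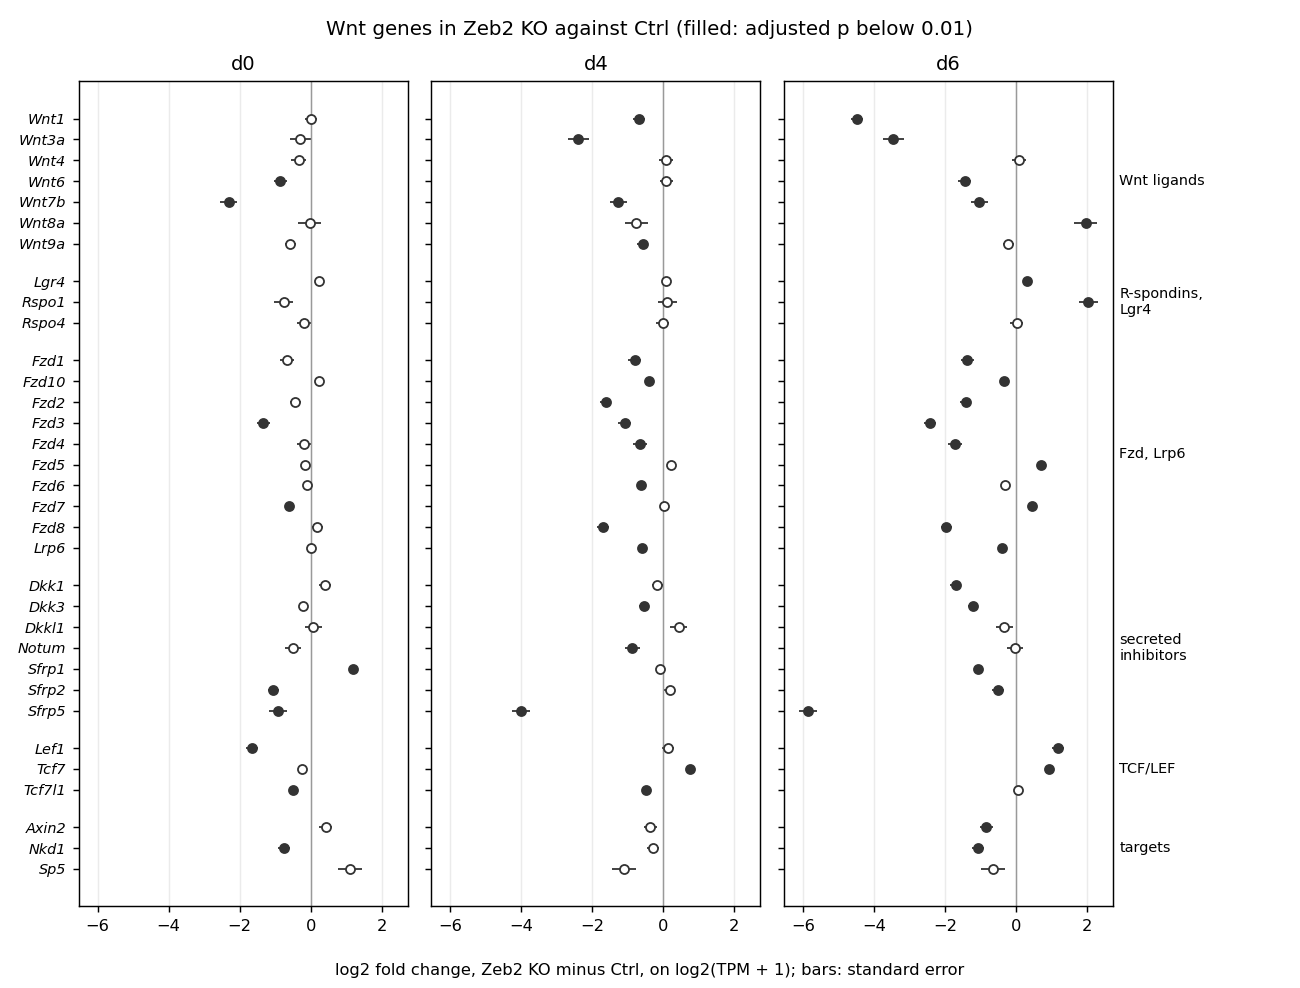
The log2 fold change between Zeb2 KO and Ctrl (x axis, on log2(TPM + 1)) is shown for each of the 33 genes at d0, d4 and d6, grouped by role, with the SE as bars and filled points where the adjusted p is below 0.01. The filled points lie mostly left of 0, and they spread from -5.86 (Sfrp5) to 2.04 (Rspo1) at d6.

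The calls by role rest on few genes each. Over all genes, 10.6%, 12.7% and 17.9% were higher and 16.4%, 32.7% and 34.3% lower in Zeb2 KO at d0, d4 and d6. Some counts by role, such as those of the receptors at d0, lay near these shares. Of the 7 Wnt ligands, 2, 4 and 4 were lower in Zeb2 KO at d0, d4 and d6 and 1 was higher, at d6. Of the 10 receptors, 2, 8 and 7 were lower and 2 were higher at d6, and with median-ratio factors 2, 6 and 5 were lower, with 1 higher at d4 and 2 at d6. Of the 7 secreted inhibitors, 2, 3 and 5 were lower and 1 was higher, at d0. The TCF/LEF factors went the other way at d6, with 2 of 3 higher and none lower, as did the R-spondin group, with 2 of 3 higher. Of the 3 genes grouped as targets (Axin2, Nkd1 and Sp5), 1 was lower at d0, none was called at d4 and 2 were lower at d6. Notum, called lower at d4, and Dkk1, called lower at d6, are also targets but are counted with the secreted inhibitors. With a count model on the recovered reads, 2 targets were higher and 1 lower at d0. The calls for the TCF/LEF and R-spondin groups were unaltered in number with either scaling.

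The promoters of 6 members are printed because 2, Axin2 and Sp5, are the usual readouts of β-catenin, and the other 4 are those with the lowest (Sfrp5, Wnt1) and highest (Rspo1, Lef1) called differences at d6 among the members matched. Each is 250 bases before to 50 bases after the gene start from RefSeq, on GRCm38.p6, read 5′ to 3′ on the strand of the gene. Capitals mark the letters CACCT and CACCTG, the core and the E-box form of the sequence that Zeb2 is known to bind (the shorter is contained in the longer), and CTTTGAT and CTTTGAA, 2 forms of the TCF/LEF sequence, each searched on both strands, so that CACCTG also appears as CAGGTG.
Axin2: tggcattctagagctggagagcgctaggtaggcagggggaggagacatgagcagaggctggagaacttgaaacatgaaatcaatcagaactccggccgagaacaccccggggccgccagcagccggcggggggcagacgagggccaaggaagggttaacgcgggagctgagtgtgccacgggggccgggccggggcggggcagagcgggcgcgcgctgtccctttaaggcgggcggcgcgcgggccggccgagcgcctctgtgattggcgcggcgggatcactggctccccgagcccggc
Sp5: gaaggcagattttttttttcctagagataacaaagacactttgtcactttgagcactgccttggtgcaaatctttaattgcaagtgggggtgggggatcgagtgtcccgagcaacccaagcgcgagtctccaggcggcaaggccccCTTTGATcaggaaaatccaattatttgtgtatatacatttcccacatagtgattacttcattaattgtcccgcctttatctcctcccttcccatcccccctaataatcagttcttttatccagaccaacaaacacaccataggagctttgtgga
Sfrp5: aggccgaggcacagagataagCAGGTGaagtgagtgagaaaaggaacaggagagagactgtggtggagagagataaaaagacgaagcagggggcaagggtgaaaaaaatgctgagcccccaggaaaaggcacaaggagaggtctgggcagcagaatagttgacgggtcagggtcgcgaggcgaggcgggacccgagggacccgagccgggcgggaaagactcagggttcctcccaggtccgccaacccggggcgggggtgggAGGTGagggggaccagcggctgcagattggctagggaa
Wnt1: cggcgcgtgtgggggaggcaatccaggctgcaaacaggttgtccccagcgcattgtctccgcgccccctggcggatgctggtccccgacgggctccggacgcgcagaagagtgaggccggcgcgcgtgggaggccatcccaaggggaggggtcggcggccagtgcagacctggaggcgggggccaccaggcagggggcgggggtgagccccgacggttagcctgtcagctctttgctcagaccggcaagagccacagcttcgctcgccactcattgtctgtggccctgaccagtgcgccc
Rspo1: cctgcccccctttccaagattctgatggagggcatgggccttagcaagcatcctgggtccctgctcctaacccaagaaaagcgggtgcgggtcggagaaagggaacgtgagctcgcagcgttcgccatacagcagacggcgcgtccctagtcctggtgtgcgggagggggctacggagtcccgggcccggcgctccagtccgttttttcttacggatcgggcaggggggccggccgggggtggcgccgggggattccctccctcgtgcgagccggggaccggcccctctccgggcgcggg
Lef1: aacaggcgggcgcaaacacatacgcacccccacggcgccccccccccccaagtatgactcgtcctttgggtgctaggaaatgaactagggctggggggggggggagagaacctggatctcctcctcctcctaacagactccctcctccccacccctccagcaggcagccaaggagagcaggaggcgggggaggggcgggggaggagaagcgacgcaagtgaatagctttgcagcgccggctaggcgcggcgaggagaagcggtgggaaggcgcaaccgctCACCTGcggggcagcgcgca
The first is Axin2 at chr11:108920099-108920398 (plus strand), which holds none of these letters. Sp5 at chr2:70474673-70474972 (plus) holds 1 CTTTGAT. Sfrp5 at chr19:42202203-42202502 (minus) holds 2 CACCT, of which 1 is a CACCTG. Wnt1 at chr15:98789607-98789906 (plus) and Rspo1 at chr4:124986180-124986479 (plus) hold none, and Lef1 at chr3:131110073-131110372 (plus), which has 4 promoters in the table, holds 1 CACCTG in the one shown. Of the 33 members 23 had a promoter in the table, and among them 10 (43.5%) held CACCT, where 51.9% of all 32851 promoters did. CACCTG was held by 7 (30.4%), namely Dkkl1, Fzd5, Lef1, Nkd1, Sfrp5, Wnt3a and Wnt4, against 20.2% of all promoters. A TCF/LEF sequence was held by 2 of the 23, Sp5 (CTTTGAT) and Dkk1 (CTTTGAA), which is 8.70% against 8.65% of all. A match describes these letters in this window only.

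The first comparison follows β-catenin targets from 2i + LIF, which holds the GSK3 inhibitor, into EBs without it, in both genotypes. The MEK inhibitor and LIF were withdrawn, serum was added and the cells formed EBs over the same interval, so that the parts of these steps cannot be told apart. Axin2 and Sp5 fell from d0 to d4 in both genotypes, Notum fell at both steps, and Nkd1 rose from d0 to d4, in Ctrl not with quantile normalization. At d6 Axin2 and Nkd1 were lower in Zeb2 KO than in Ctrl. Over the whole set, 28 of 33 members were called between d0 and d4 in Ctrl, 20 higher and 8 lower, where 67.4% of all genes were called (45.1% higher, 22.3% lower). In Zeb2 KO 28 were called over that interval, 19 higher and 9 lower, against 56.7% (35.8% higher, 20.9% lower). Between d4 and d6, 25 were called in Ctrl, 17 higher and 8 lower, against 44.1% of all genes (22.6% higher, 21.5% lower), and 21 in Zeb2 KO, 16 higher and 5 lower, against 41.4% (21.5% higher, 19.9% lower). The change itself differed between genotypes, as a called interaction, for 14 members (42.4%) from d0 to d4, near the 36.1% of all genes. From d4 to d6 it differed for 12 (36.4%), against 13.4% of all genes. The excess of higher calls from d0 to d4 was also seen in all genes, whose median moved by 0.26 in Ctrl and 0.15 in Zeb2 KO, and with quantile normalization the members called in Ctrl were 14 higher and 11 lower.

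Axin2 (chromosome 11, 108920349 to 108950783, plus strand) encodes a scaffold of the β-catenin destruction complex and is a direct feedback target of the pathway in most tissues. In Ctrl Axin2 was at 26.6, 23.9 and 20.8 TPM at d0, 8.97, 10.6 and 11.5 TPM at d4 and 19.1, 20.8 and 17.8 TPM at d6. In Zeb2 KO Axin2 was at 35.6, 41.6 and 22.5 TPM at d0, 7.21, 7.94 and 8.08 TPM at d4 and 12.3, 9.99 and 8.95 TPM at d6. The d0 groups overlapped because the third KO library lay among the Ctrl values, whereas at d4 and d6 all KO libraries lay below all Ctrl libraries. From d0 to d4 it fell by 1.12 (SE 0.18, adjusted p = 2.50e-05) in Ctrl and fell by 1.93 (SE 0.18, adjusted p = 7.38e-08) in Zeb2 KO on the log2 scale, and the difference between these falls, -0.80 (SE 0.25), had an adjusted p of 0.0139. In Ctrl it came back by d6 (0.84, SE 0.18, adjusted p = 0.000753), and in Zeb2 KO the change was 0.37 (SE 0.18, adjusted p = 0.0862). Axin2 was thus lower in Zeb2 KO at d6 (-0.84, SE 0.18, adjusted p = 0.000609), and this held under all 27 alternatives. The d0 difference of 0.43 (SE 0.18, adjusted p = 0.0646) became 0.68 (adjusted p = 0.00187) without KO replicate 3.

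Sp5 (chromosome 2, 70474923 to 70477729, plus strand), a zinc-finger factor switched on directly by β-catenin, carries the only CTTTGAT found in the promoters of the set. In Ctrl Sp5 was at 30.4, 17.1 and 11.8 TPM at d0, 2.34, 2.67 and 2.00 TPM at d4 and 7.07, 10.1 and 5.39 TPM at d6. In Zeb2 KO Sp5 was at 55.4, 58.1 and 21.3 TPM at d0, 0.482, 0.674 and 0.500 TPM at d4 and 4.35, 4.36 and 4.14 TPM at d6. Its values spread more than those of Axin2 among the d0 libraries, and KO replicate 3 was again the lowest KO value and fell within the Ctrl range. At d4 and d6 every KO value lay below every Ctrl value. It fell from d0 to d4 by 2.54 (SE 0.34, adjusted p = 3.86e-06) in Ctrl and fell by 4.76 (SE 0.34, adjusted p = 3.05e-09) in Zeb2 KO, and the fall was larger in Zeb2 KO by 2.22 on the log2 scale (interaction -2.22, SE 0.47, adjusted p = 0.00115). Both genotypes regained Sp5 from d4 to d6, by 1.32 (adjusted p = 0.00330) and 1.77 (adjusted p = 0.000347). Both of these calls were lost with a pseudocount of 5 (adjusted p = 0.0296 and 0.0339) and with voom, a count model on the recovered reads (0.0430 and 0.0319), the interaction with voom (0.0388), and the Ctrl rise also without Ctrl d4 replicate 1 (0.0105), Ctrl d4 replicate 3 (0.0141) or Ctrl d6 replicate 2 (0.0207). The differences between genotypes within a day were not called, with 1.12 at d0 (SE 0.34, adjusted p = 0.0144), -1.10 at d4 (adjusted p = 0.0104) and -0.65 at d6 (adjusted p = 0.103). The d0 value was 1.58 (adjusted p = 0.000578) without KO replicate 3 and 1.47 (adjusted p = 0.00304) without Ctrl replicate 1. With voom, Sp5 and Axin2 were both called higher in Zeb2 KO at d0. The d4 value of -1.10 was called when any of 4 d0 libraries was left out of the shared estimate of spread (adjusted p 0.00174 without KO d0 replicate 3, 0.00535 without Ctrl d0 replicate 1, 0.00710 without Ctrl d0 replicate 3 and 0.00909 without KO d0 replicate 2).

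Notum (chromosome 11, 120653788 to 120661175, minus strand) encodes an enzyme that removes the lipid from Wnt proteins and so inactivates them. In Ctrl Notum was at 63.2, 55.6 and 56.1 TPM at d0, 15.9, 19.4 and 23.3 TPM at d4 and 2.68, 3.99 and 2.59 TPM at d6. In Zeb2 KO Notum was at 34.5, 43.8 and 45.7 TPM at d0, 6.91, 10.2 and 14.5 TPM at d4 and 4.18, 2.49 and 2.53 TPM at d6. All KO libraries lay below all Ctrl libraries at d0 and d4, and the groups overlapped at d6. Unlike Axin2 in Ctrl and Sp5 in both genotypes, Notum did not rise from d4 to d6. It fell by 1.54 and then 2.33 in Ctrl and fell by 1.92 and then 1.48 in Zeb2 KO (SE 0.22, adjusted p between 2.93e-07 and 4.26e-05). Between genotypes it was called at d4 only (-0.87, SE 0.22, adjusted p = 0.00350), and not with median-ratio or quantile scaling, with the groups compared alone (fitted without the other libraries), nor without any of 4 d4 libraries (adjusted p up to 0.0241, without KO replicate 1).

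Nkd1 (chromosome 8, 88521354 to 88594884, plus strand), which binds Dishevelled and dampens the signal, was at 3.66, 4.54 and 4.24 TPM at d0, 9.01, 7.32 and 8.80 TPM at d4 and 18.5, 21.6 and 18.7 TPM at d6 in Ctrl. In Zeb2 KO Nkd1 was at 2.96, 2.16 and 1.29 TPM at d0, 6.62, 7.94 and 5.44 TPM at d4 and 8.84, 9.52 and 8.21 TPM at d6. The groups were apart at d0 and d6, with Zeb2 KO lower, and overlapped at d4. The difference was called at d0 (-0.75, SE 0.17, adjusted p = 0.00272) and d6 (-1.06, adjusted p = 5.67e-05), and the value at d4 was -0.30 (adjusted p = 0.150). The d0 call was lost with quantile normalization, with the groups compared alone (adjusted p = 0.0262) and without Ctrl replicate 2 (adjusted p = 0.0133), Ctrl replicate 3 (0.0109) or KO replicate 3 (0.0157). In Ctrl Nkd1 rose by 0.86 and 1.14 over the 2 intervals, and in Zeb2 KO it rose by 1.31 (adjusted p = 4.76e-06) from d0 to d4, with 0.37 (adjusted p = 0.0801) from d4 to d6. The first Ctrl rise was lost with quantile normalization (0.13, adjusted p = 0.500).

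**Figure D2:**
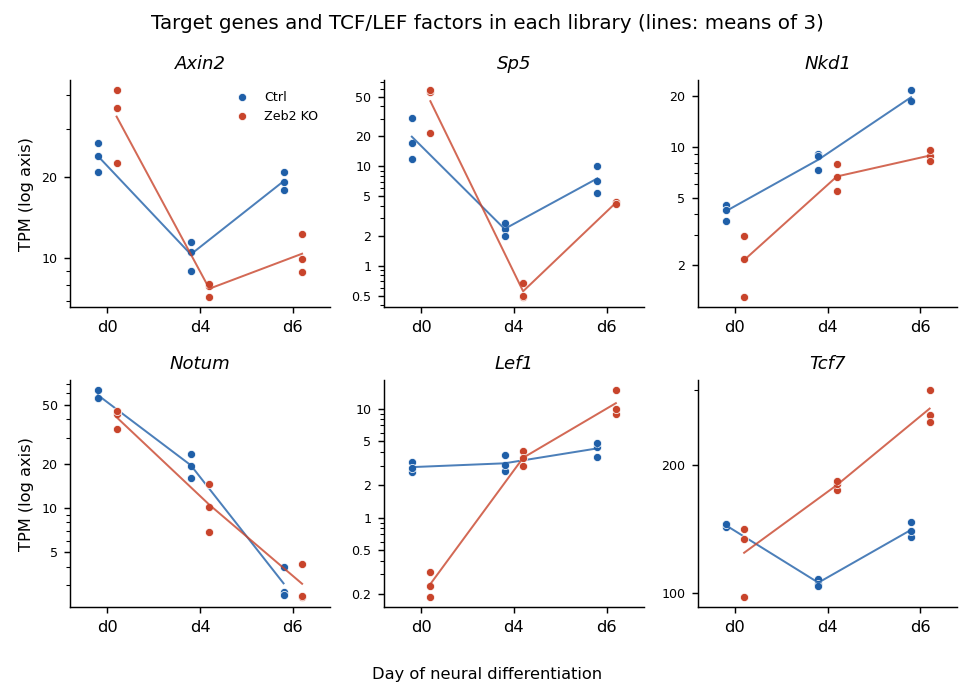
TPM on a log axis in each library (points) and the mean of 3 libraries (lines) are plotted by day for Axin2, Sp5, Nkd1, Notum, Lef1 and Tcf7 in Ctrl (blue) and Zeb2 KO (red), each panel with its own scale. Axin2 and Sp5 dip at d4 in both genotypes, and at d6 Axin2 is at 17.8 to 20.8 TPM in Ctrl and 8.95 to 12.3 TPM in Zeb2 KO while Lef1 and Tcf7 are higher in Zeb2 KO.

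The TCF/LEF factors bind β-catenin on DNA. Lef1 and Tcf7 are known mostly as activators with β-catenin, and Tcf7l1 as a repressor of pluripotency genes in mESCs. In Zeb2 KO, Lef1 and Tcf7 both rose over ND to levels above Ctrl at d6, and Tcf7l1 was lower at d0 and d4.

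Lef1 (chromosome 3, 131110471 to 131224356, plus strand) changed sign between genotypes. In Ctrl Lef1 was at 3.24, 2.63 and 2.84 TPM at d0, 2.66, 3.03 and 3.75 TPM at d4 and 4.44, 4.87 and 3.63 TPM at d6. In Zeb2 KO Lef1 was at 0.236, 0.314 and 0.186 TPM at d0, 2.96, 4.11 and 3.54 TPM at d4 and 14.8, 8.86 and 10.0 TPM at d6. The KO values lay far below Ctrl at d0, among them at d4 and above them at d6, without overlap at d0 and d6. The log2 difference was -1.65 (SE 0.17, adjusted p = 2.65e-06) on the first of these days and 1.18 (adjusted p = 1.90e-05) on the last, with 0.13 (adjusted p = 0.535) in between, and both calls held under all 26 alternatives that could be computed. Lef1 entered the table only through its KO values at d6, so its d6 call describes the gene and is no test of it. Within genotypes, Lef1 rose by 1.86 (adjusted p = 8.57e-08) and 1.41 (adjusted p = 4.85e-06) in Zeb2 KO, and the changes in Ctrl, 0.08 and 0.36, were not called, the first becoming -0.77 (adjusted p = 0.00141) with quantile normalization. The d0 difference went the other way than those of Axin2 and Sp5 on the same day, which were called with voom but not in the main test.

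Tcf7 (chromosome 11, 52252371 to 52283014, minus strand) was at 145, 143 and 145 TPM at d0, 108, 105 and 104 TPM at d4 and 135, 140 and 147 TPM at d6 in Ctrl. In Zeb2 KO Tcf7 was at 141, 134 and 97.7 TPM at d0, 175, 180 and 183 TPM at d4 and 300, 262 and 252 TPM at d6. Ctrl dipped at d4 and returned, whereas Zeb2 KO rose at both steps and lay above Ctrl without overlap at d4 and d6. The return in Ctrl (0.40) was not called without Ctrl d6 replicate 3 (adjusted p = 0.0128) or Ctrl d4 replicate 3. Its difference at d4 was 0.75 (SE 0.10, adjusted p = 1.16e-05), at d6 0.94 (adjusted p = 6.14e-07), and at d0 -0.23 (adjusted p = 0.0776). Tcf7l1 was at 136 to 173 TPM in Ctrl and 105 to 113 TPM in Zeb2 KO at d0, at 133 to 146 and 95.2 to 104 TPM at d4, and at 85.7 to 90.6 and 85.6 to 96.0 TPM at d6. It was lower in Zeb2 KO by 0.50 (SE 0.07, adjusted p = 6.78e-05) at d0 and by 0.48 (adjusted p = 5.51e-05) at d4 on the log2 scale, and the difference was 0.06 (adjusted p = 0.535) at d6. As a result, the ratio of Tcf7 to Tcf7l1 TPM had a mean of 0.940, 0.766 and 1.59 at d0, d4 and d6 in Ctrl, and of 1.15, 1.81 and 2.97 in Zeb2 KO. At d4 its range was 0.720 to 0.814 in Ctrl and 1.76 to 1.89 in Zeb2 KO, and at d6 1.51 to 1.72 and 2.63 to 3.51.

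Among the Wnt ligands, Zeb2 KO cells had little or none of the Wnt1 and Wnt3a seen in Ctrl at d6, had less Wnt6 and Wnt7b, and had more Wnt8a. The summed TPM of the 7 ligands was 87.1 ± 3.81 in Ctrl and 77.3 ± 29.8 in Zeb2 KO at d6 (mean ± SD, n = 3). KO replicate 1 (112 TPM) lay above the Ctrl range of 84.6 to 91.5 TPM with Wnt8a at 92.9 TPM. The other KO libraries (60.4 and 59.8 TPM) lay below that range, so that the KO libraries did not all differ in the same direction. In Ctrl at d6 Wnt1 was 28.6% of the sum, Wnt3a 16.1%, Wnt7b 13.8% and Wnt8a 13.3%. In Zeb2 KO Wnt8a was 65.4% of it (55.7% to 83.2%). At d0 the sum was 18.6 ± 6.10 and 4.96 ± 0.810 TPM, and at d4 31.0 ± 3.56 and 13.3 ± 3.41 TPM, in Ctrl and Zeb2 KO.

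Wnt1 (chromosome 15, 98789857 to 98793837, plus strand) marks the dorsal midline and the midbrain of the early neural tube. In Ctrl Wnt1 was at 0.100, 0.120 and 0.133 TPM at d0, 0.827, 0.449 and 1.55 TPM at d4 and 24.3, 27.6 and 22.8 TPM at d6. In Zeb2 KO Wnt1 was at 0.125, 0.100 and 0.148 TPM at d0, 0.142, 0.119 and 0.294 TPM at d4 and 0.132, 0.120 and 0.252 TPM at d6. The d0 values of both groups and all KO values at d4 and d6 are at the floor: the 3 Ctrl libraries at d0 held 0 reads, and the 3 KO libraries 1 read in all at d4 and 1 at d6, against 23 and 578 reads in Ctrl. In reads pooled over the 3 libraries, Ctrl was therefore 553-fold higher at d6 with a counting interval of 98.8 to 21900, and 17.1-fold higher at d4 (2.77 to 703). These intervals hold the sampling of pooled reads only and leave out the spread between libraries. The log2 difference, which the added 1 compresses, was -4.47 (SE 0.17, adjusted p = 3.74e-12) at d6 and -0.68 (adjusted p = 0.00329) at d4. The d4 call was lost with quantile normalization, with a pseudocount of 5, with the groups compared alone and without Ctrl replicate 3 (adjusted p = 0.0196), KO replicate 1 (0.0121) or KO replicate 2 (0.0137). The pooled Ctrl reads were 6.60-fold higher at d4 than at d0 if 3 reads are set for the d0 group, with no error on the d4 reads. By limma on log2(TPM + 1), Ctrl rose by 0.76 from d0 to d4 (adjusted p = 0.000831). This rise was not called with the groups compared alone (adjusted p = 0.0146), a pseudocount of 5 (0.0154) or quantile normalization (0.318).

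Wnt3a (chromosome 11, 59248033 to 59290752, minus strand), a ligand of the primitive streak and the dorsal neural tube that activates β-catenin, was at 1.21, 2.57 and 4.01 TPM at d0, 9.34, 8.41 and 6.00 TPM at d4 and 12.6, 19.6 and 10.3 TPM at d6 in Ctrl. In Zeb2 KO Wnt3a was at 1.94, 1.55 and 1.91 TPM at d0, 0.366, 0.615 and 1.14 TPM at d4 and 0.799, 0.104 and 0.217 TPM at d6. The groups overlapped at d0 and were well apart afterwards. The d4 difference was -2.39 (SE 0.29, adjusted p = 5.06e-06) and the d6 difference -3.45 (adjusted p = 4.47e-08), while that at d0 was -0.29 (adjusted p = 0.476). Ctrl rose from d0 to d4 by 1.37 (adjusted p = 0.000483), and the KO change was -0.74 (adjusted p = 0.0357). With quantile normalization the Ctrl rise was not called (0.60, adjusted p = 0.0622), and the KO change was called as a fall (-1.35, adjusted p = 0.000429).

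Wnt6 (chromosome 1, 74771892 to 74785322, plus strand) and Wnt7b (chromosome 15, 85535437 to 85582473, minus strand) are ligands of surface ectoderm and of neural and epithelial tissues. Wnt6 was at 1.20, 1.43 and 1.16 TPM at d0, 0.493, 0.893 and 0.791 TPM at d4 and 8.56, 9.30 and 6.70 TPM at d6 in Ctrl. In Zeb2 KO Wnt6 was at 0.299, 0.239 and 0.235 TPM at d0, 0.451, 1.04 and 1.05 TPM at d4 and 2.53, 2.97 and 1.70 TPM at d6. It was lower in Zeb2 KO without overlap at d0 (-0.85, SE 0.18, adjusted p = 0.00149) and d6 (-1.44, adjusted p = 3.75e-06), and the groups overlapped at d4. Wnt7b was at 9.78, 9.80 and 18.0 TPM at d0, 2.12, 2.76 and 2.55 TPM at d4 and 11.5, 10.2 and 14.1 TPM at d6 in Ctrl. In Zeb2 KO Wnt7b was at 1.80, 1.13 and 2.12 TPM at d0, 0.363, 0.305 and 0.679 TPM at d4 and 3.67, 5.68 and 6.85 TPM at d6. It was the ligand with the highest Ctrl level at d0 and was lower in Zeb2 KO at every day, in every library, by 2.30 (SE 0.24, adjusted p = 2.17e-06), 1.27 (adjusted p = 0.000278) and 1.04 (adjusted p = 0.00114) on the log2 scale. Its level dipped at d4 and rose again by d6 in both genotypes, the KO dip (-0.88) being lost with a pseudocount of 5, with voom and without any of 4 KO libraries (adjusted p up to 0.0201, without KO d0 replicate 3). The Wnt6 call at d0 and the Wnt7b call at d4 were lost with a pseudocount of 5 (adjusted p = 0.0243 and 0.0160).

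Wnt8a (chromosome 18, 34542313 to 34548273, plus strand), a ligand of the primitive streak, was the only ligand called higher in Zeb2 KO than in Ctrl, at d6. In Ctrl Wnt8a was at 0.958, 0.814 and 0.363 TPM at d0, 12.0, 12.2 and 20 TPM at d4 and 11.5, 10.3 and 12.8 TPM at d6. In Zeb2 KO Wnt8a was at 0.341, 0.681 and 1.01 TPM at d0, 5.60, 8.91 and 10.4 TPM at d4 and 92.9, 33.6 and 34.2 TPM at d6. All KO libraries were below Ctrl at d4 and above at d6, where KO replicate 1 stood far above the other two. The difference was -0.03 at d0 (adjusted p = 0.954), -0.76 at d4 (adjusted p = 0.0586) and 1.96 (SE 0.33, adjusted p = 7.50e-05) at d6, and without KO d6 replicate 1 it was 1.48 (adjusted p = 0.000146). The remaining ligands moved with the day more than with the genotype. Wnt9a reached 9.88 to 12.6 TPM in Ctrl and 7.75 to 10.9 TPM in Zeb2 KO at d6, and its call at d4 (-0.58, adjusted p = 0.00549) was lost with both other scalings, both other pseudocounts, voom and the groups compared alone, and without any of 5 d4 libraries (adjusted p up to 0.0251, without KO replicate 1). Wnt4 reached 4.33 to 6.81 and 3.83 to 7.07 TPM at d6, and was called between genotypes at none of the days.

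The R-spondins amplify Wnt signals by protecting Frizzled receptors from degradation, through Lgr receptors. Rspo1 (chromosome 4, 124986430 to 125009099, plus strand) was at 1.57, 0.748 and 3.06 TPM at d0, 5.17, 9.83 and 9.0 TPM at d4 and 6.18, 8.70 and 8.53 TPM at d6 in Ctrl. In Zeb2 KO Rspo1 was at 0.392, 1.04 and 0.309 TPM at d0, 7.39, 9.68 and 8.44 TPM at d4 and 36.6, 37.0 and 31.1 TPM at d6. The groups overlapped at d0 and d4 and stood well apart at d6, with Zeb2 KO higher by 2.04 on the log2 scale (SE 0.27, adjusted p = 7.61e-06). The d0 difference was -0.76 (adjusted p = 0.0354), and -1.06 (adjusted p = 0.00586) without Ctrl replicate 2. Rspo4 rose at both steps in both genotypes (the first Ctrl rise not with quantile normalization, adjusted p = 0.231), to 5.39 to 7.32 TPM in Ctrl and 4.78 to 8.57 TPM in Zeb2 KO at d6, with a difference of 0.02 (SE 0.19). Lgr4, the receptor for R-spondins, was at 78.5 to 85.2 and 96.3 to 112 TPM at d6, a difference of 0.31 (SE 0.09, adjusted p = 0.00890) that was called under 12 of 27 alternatives and was lost without any of several libraries, with an adjusted p up to 0.0446 (without KO d6 replicate 1).

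**Figure D3:**
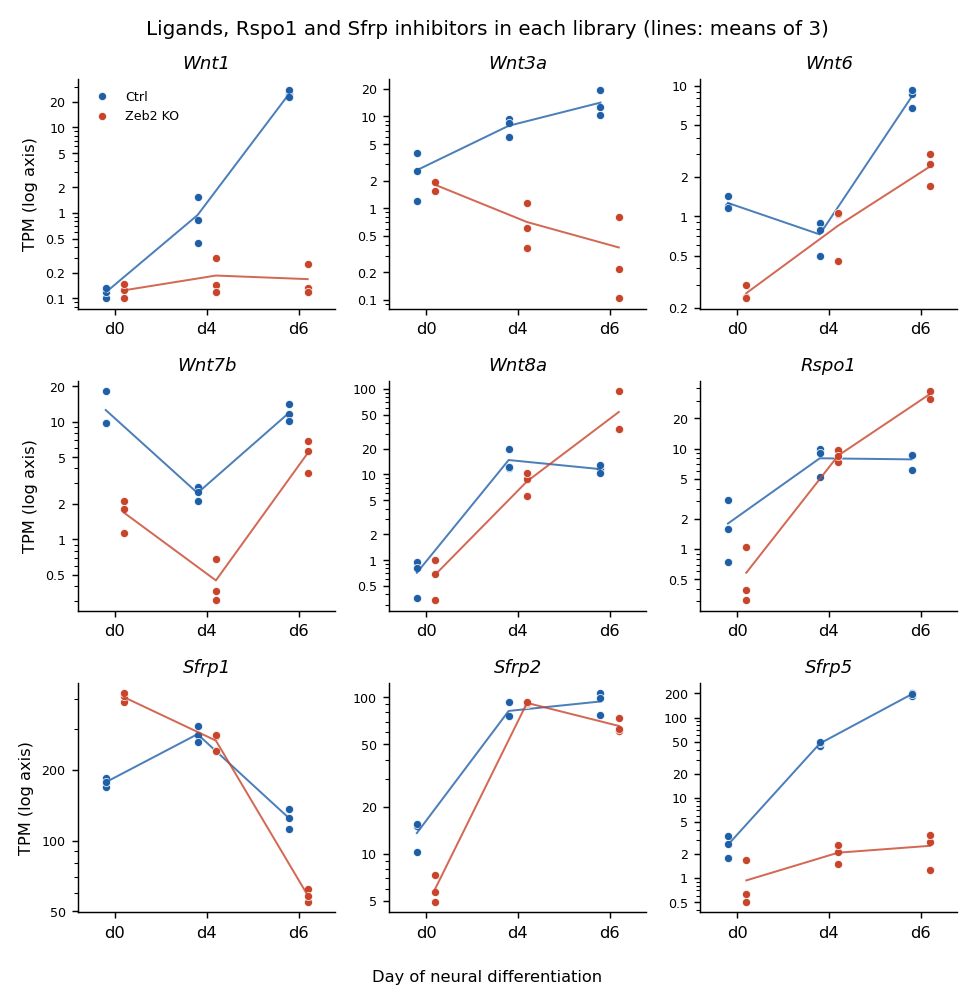
TPM on a log axis in each library (points) and the mean of 3 libraries (lines) are plotted by day for 5 Wnt ligands, Rspo1 and 3 Sfrp inhibitors in Ctrl (blue) and Zeb2 KO (red), each panel with its own scale. At d6 Wnt1, Wnt3a and Sfrp5 are at 22.8 to 27.6, 10.3 to 19.6 and 187 to 201 TPM in Ctrl and at most 3.47 TPM in any Zeb2 KO library, and Wnt8a and Rspo1 are higher in Zeb2 KO.

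The Frizzled receptors showed a change of main receptor during ND in both genotypes, and a lower total in Zeb2 KO at each day, least so at d0. Fzd5 and Fzd10 together were 68.1% of the summed TPM of the 9 Fzd genes in Ctrl at d0, 18.3% at d4 and 7.50% by d6, against 76.5%, 23.1% and 10.3% in Zeb2 KO. Fzd2 and Fzd7 together went from 20.6% to 58.0% and 60.7% in Ctrl, and from 14.5% to 61.7% and 74.6% in Zeb2 KO. The sum was 265 ± 2.27, 559 ± 21.8 and 580 ± 9.86 TPM in Ctrl and 249 ± 10.9, 404 ± 14.2 and 423 ± 24.5 TPM in Zeb2 KO at d0, d4 and d6 (mean ± SD, n = 3). The ranges of the genotypes did not overlap at d0, d4 or d6, with d0 closest. At d6 Fzd7 alone was 59.5% of the sum in Zeb2 KO and 31.5% in Ctrl, and Fzd2 15.1% and 29.2%.

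Of the receptors that were lower in Zeb2 KO, Fzd2 (chromosome 11, 102604396 to 102608058, plus strand) was at 6.39, 7.29 and 7.87 TPM at d0, 92.0, 125 and 120 TPM at d4 and 170, 178 and 160 TPM at d6 in Ctrl. In Zeb2 KO Fzd2 was at 5.45, 4.42 and 5.38 TPM at d0, 30.1, 39.9 and 36.9 TPM at d4 and 46.4, 70.9 and 75.2 TPM at d6. The groups did not overlap at any day, and Fzd2 rose in both genotypes but less in Zeb2 KO from d0 to d4 (interaction -1.19, SE 0.23, adjusted p = 0.000473, and 0.0382 with voom). The genotypes differed by -1.62 at d4 (SE 0.16, adjusted p = 5.93e-07) and -1.42 at d6 (adjusted p = 1.35e-06), and the d0 value was -0.43 (adjusted p = 0.0450).

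Fzd8 (chromosome 18, 9212163 to 9218136, plus strand), a receptor of anterior neural tissue, was at 4.07, 6.97 and 6.34 TPM at d0, 47.0, 47.9 and 51.8 TPM at d4 and 62.0, 54.5 and 51.5 TPM at d6 in Ctrl. In Zeb2 KO Fzd8 was at 6.59, 8.18 and 5.36 TPM at d0, 15.5, 14.3 and 13.4 TPM at d4 and 12.1, 14.0 and 14.9 TPM at d6. From similar values at d0 the groups parted at d4 and stayed apart, by -1.70 at d4 (SE 0.16, adjusted p = 2.58e-07) and -1.96 at d6 (adjusted p = 2.27e-08).

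Fzd3 (chromosome 14, 65192449 to 65262463, minus strand), a receptor known for planar polarity and axon guidance, was at 6.98, 9.18 and 7.32 TPM at d0, 21.4, 22.3 and 22.6 TPM at d4 and 50.7, 47.7 and 53.7 TPM at d6 in Ctrl. In Zeb2 KO Fzd3 was at 2.99, 2.96 and 1.69 TPM at d0, 8.75, 12.8 and 8.47 TPM at d4 and 8.73, 7.06 and 10.5 TPM at d6. It was lower in Zeb2 KO in every library at every day, by 1.33 (SE 0.18, adjusted p = 2.37e-05), 1.09 (adjusted p = 8.11e-05) and 2.42 (adjusted p = 7.70e-09) on the log2 scale. From d4 to d6 it rose by 1.16 in Ctrl (adjusted p = 3.83e-05), and the change in Zeb2 KO was -0.17 (adjusted p = 0.453), a difference that was itself called (interaction -1.33, SE 0.25, adjusted p = 0.00105).

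Fzd1 (chromosome 5, 4753839 to 4758035, minus strand) was at 2.45, 3.25 and 4.53 TPM at d0, 13.6, 16.2 and 15.3 TPM at d4 and 24.5, 26.4 and 17.6 TPM at d6 in Ctrl. In Zeb2 KO Fzd1 was at 1.77, 1.70 and 1.68 TPM at d0, 9.0, 9.37 and 6.25 TPM at d4 and 6.76, 7.91 and 9.85 TPM at d6. All KO values lay below Ctrl at each day, with differences of -0.67 (SE 0.19, adjusted p = 0.0110), -0.81 (adjusted p = 0.00188) and -1.37 (adjusted p = 1.25e-05), and the d4 call was lost without KO d4 replicate 3 (adjusted p = 0.0128) and with quantile normalization. Fzd4 (chromosome 7, 89404355 to 89413134, plus strand), which also serves as the receptor of the non-Wnt ligand norrin, was at 3.76, 2.70 and 2.84 TPM at d0, 11.9, 13.5 and 14.6 TPM at d4 and 23.3, 18.8 and 24.2 TPM at d6 in Ctrl. In Zeb2 KO Fzd4 was at 2.02, 3.16 and 2.67 TPM at d0, 7.96, 7.68 and 8.36 TPM at d4 and 8.81, 5.36 and 4.55 TPM at d6. The groups overlapped at d0 and not at d4 and d6, where the differences were -0.66 (SE 0.19, adjusted p = 0.00620) and -1.71 (adjusted p = 8.16e-07). The d4 call of Fzd4 was lost with both other scalings, a pseudocount of 0.1 and without any of 5 d4 libraries (adjusted p up to 0.0282, without Ctrl replicate 3).

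The receptors that were higher in Zeb2 KO at d6 were Fzd7 and Fzd5. Fzd7, the main Fzd of both genotypes from d4 on, was at 45.5 to 49.8 TPM in Ctrl and 29.5 to 33.3 TPM in Zeb2 KO at d0, at 208 to 219 and 197 to 228 TPM at d4, and at 178 to 186 and 237 to 268 TPM at d6. Its difference turned from -0.60 (SE 0.06, adjusted p = 3.25e-06) at d0 to 0.46 (adjusted p = 1.23e-05) at d6. Fzd5 fell in both genotypes, in Ctrl from a range of 70.5 to 81.7 TPM at d0 to 10.4 to 10.8 TPM at d6 and in Zeb2 KO from a range of 62.3 to 74.3 TPM to 17.7 to 18.7 TPM, and at d6 it was higher in Zeb2 KO by 0.71 (SE 0.09, adjusted p = 7.23e-06). Fzd6, Fzd10 and the co-receptor Lrp6 differed less. Fzd6 was lower in Zeb2 KO at d4 (-0.64, SE 0.10, adjusted p = 3.49e-05), with a difference of -0.30 (adjusted p = 0.0118) at d6. The Lrp6 difference was -0.60 at d4 (adjusted p = 3.64e-05) and -0.39 at d6 (adjusted p = 0.00117), the latter lost with median-ratio factors (adjusted p = 0.0194) and with the groups compared alone (0.0118). Fzd10 was lower in Zeb2 KO at d4 (-0.40, adjusted p = 0.00242) and d6 (-0.35, adjusted p = 0.00534), both calls lost with median-ratio factors, quantile normalization, voom and the groups compared alone, and without single libraries (adjusted p up to 0.0167 at d4, without Ctrl replicate 1, and 0.0366 at d6, without Ctrl replicate 2). Reads of Fzd10 cannot be told from those of its antisense gene Fzd10os where strand was not used, which is not given in the sources used here.

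**Figure D4:**
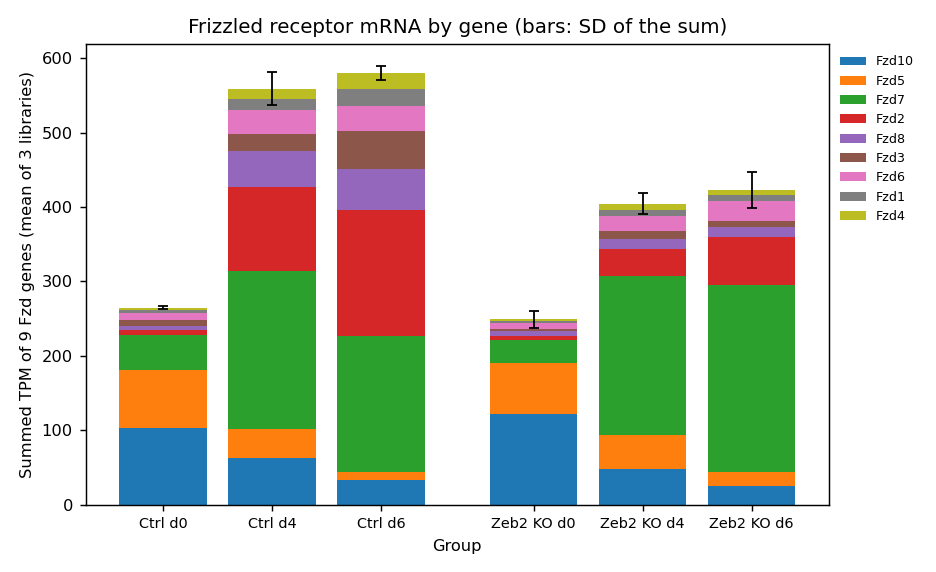
Stacked bars show the TPM of the 9 Fzd genes (mean of 3 libraries) in each group, from 0, with the SD of the sum as black bars. Fzd10 and Fzd5 make up most of the d0 bars and Fzd7 and Fzd2 most of the d6 bars, and the sum at d6 is 580 TPM in Ctrl and 423 TPM in Zeb2 KO.

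Among the secreted inhibitors, Sfrp5 showed the largest difference on log2(TPM + 1) at d4 and at d6, a scale on which that of Wnt1 is compressed. Secreted Frizzled-related proteins bind Wnt proteins outside the cell. Sfrp5 (chromosome 19, 42197971 to 42202252, minus strand) was at 1.76, 2.69 and 3.33 TPM at d0, 44.5, 48.6 and 49.3 TPM at d4 and 201, 187 and 198 TPM at d6 in Ctrl. In Zeb2 KO Sfrp5 was at 0.627, 0.501 and 1.67 TPM at d0, 2.13, 1.49 and 2.58 TPM at d4 and 2.82, 3.47 and 1.26 TPM at d6. It climbed steeply in Ctrl and stayed at a few TPM in every KO library, without overlap at any day. The difference was -4.00 at d4 (SE 0.25, adjusted p = 2.80e-09) and -5.86 at d6 (adjusted p = 1.12e-11), and at d0 -0.92 (adjusted p = 0.00766), a call that held under 12 of 27 alternatives and was lost without 10 different single libraries (adjusted p up to 0.0411, without Ctrl d0 replicate 3). At d6 Sfrp5 was 47.2% of the summed TPM of the 3 Sfrp genes in Ctrl and 1.97% in Zeb2 KO.

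Sfrp1 (chromosome 8, 23411502 to 23449632, plus strand) was the secreted inhibitor with the highest level at d0. In Ctrl Sfrp1 was at 170, 185 and 177 TPM at d0, 281, 262 and 309 TPM at d4 and 112, 136 and 125 TPM at d6. In Zeb2 KO Sfrp1 was at 389, 411 and 424 TPM at d0, 279, 240 and 281 TPM at d4 and 62.5, 54.8 and 58.3 TPM at d6. Zeb2 KO lay far above Ctrl at d0, overlapped with it at d4 and lay below it at d6. The difference turned from 1.20 (SE 0.08, adjusted p = 3.38e-08) through -0.09 (adjusted p = 0.354) to -1.07 (adjusted p = 1.20e-08). Sfrp1 was the only member called higher at d0 in the main test, while voom called 3 members higher, Sfrp1, Axin2 and Sp5.

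Sfrp2 (chromosome 3, 83766321 to 83774316, plus strand) was at 15.0, 10.3 and 15.4 TPM at d0, 75.6, 93.7 and 76.0 TPM at d4 and 106, 99.3 and 76.7 TPM at d6 in Ctrl. In Zeb2 KO Sfrp2 was at 4.92, 5.74 and 7.27 TPM at d0, 91.1, 92.0 and 93.0 TPM at d4 and 60.5, 73.9 and 62.4 TPM at d6. It started lower in Zeb2 KO (-1.05, SE 0.16, adjusted p = 6.78e-05) and reached the same range as Ctrl at d4. At d6 the difference was -0.51 (adjusted p = 0.010), which was called under 10 of 27 alternatives and lost with both other scalings and without several single libraries (adjusted p up to 0.0516, without Ctrl d6 replicate 1). The summed Sfrp TPM was 193 ± 5.84, 413 ± 18.0 and 414 ± 12.6 in Ctrl and 415 ± 19.6, 361 ± 23.7 and 127 ± 5.11 in Zeb2 KO at d0, d4 and d6. The total was thus higher in Zeb2 KO at d0 and lower at d6, without overlap.

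The Dickkopf proteins act at Lrp5 and Lrp6 or are related to those that do. Dkk1 (chromosome 19, 30545863 to 30549665, minus strand), an antagonist needed for head formation and itself a β-catenin target, was at 0.984, 0.703 and 0.783 TPM at d0, 0.607, 0.550 and 0.325 TPM at d4 and 5.65, 7.38 and 6.58 TPM at d6 in Ctrl. In Zeb2 KO Dkk1 was at 1.35, 1.47 and 1.45 TPM at d0, 0.278, 0.583 and 0.144 TPM at d4 and 1.69, 0.944 and 1.36 TPM at d6. Zeb2 KO lay above Ctrl in every library at d0 (0.41, SE 0.16, adjusted p = 0.0553) and below it in every library at d6 (-1.70, SE 0.16, adjusted p = 1.91e-07). Dkk3 (chromosome 7, 112116017 to 112159057, minus strand), a family member whose role in Wnt signalling is less defined, was at 3.99, 5.59 and 5.75 TPM at d0, 12.4, 10.1 and 9.32 TPM at d4 and 25.9, 26.0 and 24.3 TPM at d6 in Ctrl. In Zeb2 KO Dkk3 was at 4.08, 3.97 and 4.61 TPM at d0, 6.93, 7.08 and 6.67 TPM at d4 and 9.85, 10.7 and 10.5 TPM at d6. The groups overlapped at d0 and were apart at d4 (-0.55, SE 0.12, adjusted p = 0.00136) and d6 (-1.22, adjusted p = 3.96e-07), with the d4 call lost under both other scalings and voom. Dkkl1 was called at none of the days and was at 14.3 to 19.3 TPM in Ctrl and 12.6 to 13.6 TPM in Zeb2 KO at d6.

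The same genes can be set against the rest of the pathway, counted for lists of which each gene in the table was included. These counts are read beside all genes, of which 10.6%, 12.7% and 17.9% were higher and 16.4%, 32.7% and 34.3% lower in Zeb2 KO at d0, d4 and d6, with a median of -0.14 at d6. Of the 14 genes of the destruction complex and its transducers, 1 was higher and 4 lower in Zeb2 KO at d0, 10 lower at d4 and 10 lower at d6, with a median of -0.35 at d6. The largest at d6 were Dvl3 (-1.07) and Gsk3b (-0.78), a Dishevelled and the kinase that CHIR99021 blocks. Of 13 genes for Wnt secretion, co-receptors and extracellular inhibitors, 2 were higher and 4 lower at d0, 8 lower at d4 and 8 lower at d6 (median -0.55). Wls, the carrier that takes Wnt proteins to the cell surface, had a mean of 1.04, 22.0 and 72.1 TPM in Ctrl and 2.54, 5.82 and 10.2 TPM in Zeb2 KO at d0, d4 and d6. Porcn, the enzyme that adds the lipid to Wnt proteins, differed by -2.53 at d4, and the extracellular antagonists Draxin and Frzb by -4.24 and -3.26 at d6. With median-ratio factors the counts of the first list were 1 higher and 6 lower at d4 and 1 higher and 7 lower at d6, and those of the second 7 and 8 lower.

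Of 12 nuclear cofactors, 2 were higher and 3 lower at d0, 1 higher and 6 lower at d4, and 3 higher and 7 lower at d6, led by Pygo1 (-2.15), an adaptor of the β-catenin complex. Of 12 planar polarity genes, 2 were higher and 2 lower at d0, 4 lower at d4, and 2 higher and 6 lower at d6, led by Celsr2 (-2.06) and Vangl2 (-1.51). Both lists depended on scaling at d4, where with median-ratio factors 2 cofactors were higher and 2 lower and 1 polarity gene was lower, and less so at d6, where 3 and 5 cofactors and 3 and 4 polarity genes were higher and lower. Among 10 β-catenin targets outside the set, 2 were higher and 0 lower at d0, 3 higher and 3 lower at d4, and 3 higher and 5 lower at d6 (5 and 5 with quantile normalization). Cdx1, a posterior homeobox gene, was at a mean of 90.6, 28.6 and 12.9 TPM in Ctrl and 196, 3.33 and 1.61 TPM in Zeb2 KO, so that it was higher in Zeb2 KO at d0 (1.05) and lower at d4 (-2.80) and d6 (-2.44). Sp8, a relative of Sp5, differed by 0.84 at d0, -2.43 at d4 and -3.60 at d6, whereas Fgf8 was higher by 2.97 at d6. The 7 pluripotency genes known to be repressed by Tcf7l1 fell at both steps in both genotypes, and 1 was higher in Zeb2 KO at d0 (Esrrb), 1 higher and 1 lower at d4, and 3 higher at d6 (Nanog 1.42, Nr0b1 0.97, Esrrb 0.67).

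The mRNA of cell type markers differed between genotypes over the same days. Beside the marker counts at d6, 17.9% of all genes were higher and 34.3% lower in Zeb2 KO. The summed TPM of 11 neural markers was 580 to 660 in Ctrl and 99.8 to 119 in Zeb2 KO at d6, with all 11 lower and Dcx without reads in the KO libraries, and it was 329 to 391 and 219 to 236 TPM at d4. The sum of 11 endoderm markers was 233 to 383 in Ctrl and 63.8 to 103 in Zeb2 KO at d6 (10 lower), and that of 7 mesoderm markers 195 to 251 and 36.3 to 43.8 TPM (5 lower, 1 higher). The sum of 5 epiblast markers was 134 to 144 in Ctrl and 910 to 1050 in Zeb2 KO at d6, with all 5 higher. The 9 naive pluripotency markers summed to 268 to 326 and 360 to 379 TPM at d6 (4 higher, 1 lower) and to similar ranges at d0 (3340 to 3580 and 3390 to 3610 TPM). The 5 trophectoderm markers summed to 1040 to 1620 and 1030 to 2040 TPM at d6 (3 lower), and the 6 neural crest markers to 65.4 to 80.7 and 50.9 to 57.6 TPM (1 higher, 5 lower). These markers moved with the lower Wnt1, Wnt3a, Sfrp5 and Fzd8 and the higher Wnt8a, Lef1 and Rspo1 of Zeb2 KO at d6, and their part in these results was not tested.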

How the data were processed

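The authors aligned single reads of 36 bases with TopHat2 2.0.13 to GRCm38 and counted them with featureCounts 1.4.6. The authors deposited TPM values for 18 libraries, kept for genes with at least 5 TPM in at least 3 samples, less the 20% least variable and short noncoding genes. The first of any repeated entries was kept (10965 genes). The authors also deposited 3 score columns on the variability of each gene, which were not used. For differential expression the authors ran DESeq2. Whole reads were recovered from the TPM values for all 10965 genes (tolerance 1e-06), and they held 1 added read per gene, so that depth was 9622622 to 15617675 reads per library (median 12131165). Genes near 1 TPM rest on few reads at that depth.

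The test was limma 3.58.1 (R 4.3.3) on log2(TPM + 1), fitted to 6 group means with an intensity trend and Benjamini-Hochberg adjustment over all genes. The study tested counts, which these TPM values are not, so a count model (voom on the recovered reads) was an alternative. The others were pseudocounts of 0.1 and 5, a minimum mean of 10 TPM, median-ratio and quantile scaling, no trend, groups compared alone, a replicate block, an absolute log2 fold change above 1 and leaving out each library. The fit was checked on simulated data. Values in every library are given for members with a group mean of at least 5 TPM that were called between genotypes with an absolute log2 fold change above 1, and for Axin2, Sp5, Lef1, Nkd1, Notum and Tcf7. Other genes of a list are named up to 4 per day, by size among those called. Sums, shares and ratios of TPM carry no test. Positions are from GENCODE M21 on GRCm38. The figures and sums used Python 3.11.15, pandas 2.3.3 and matplotlib 3.10.9. The members, lists and tests were chosen with earlier results of these data known.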

Additional observations from a re-analysis of the deposited data

Results flagged for a closer look

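A change between days that differed between Zeb2 KO and Ctrl by an interaction test (limma, adjusted p below 0.01 over all genes) was found for 14 of the 33 genes (42.4%) from d0 to d4, where 36.1% of all genes had one, and for 12 (36.4%) from d4 to d6, where 13.4% had one. The count from d0 to d4 thus lay near the share of all genes. Values are the change in Zeb2 KO minus that in Ctrl on log2(TPM + 1), and n = 3 libraries in each group.

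From d0 to d4 the change was more positive in Zeb2 KO for Lef1 (1.78), Sfrp2 (1.23), Tcf7 (0.99), Wnt6 (0.93) and Fzd7 (0.61). It was more negative for Sfrp5 (-3.08), Sp5 (-2.22), Wnt3a (-2.10), Fzd8 (-1.89), Sfrp1 (-1.29), Fzd2 (-1.19), Fzd10 (-0.64), Lrp6 (-0.62) and Fzd6 (-0.55). For Sfrp1 and Tcf7 the genotypes moved in opposite directions, each of the 4 changes being called: Sfrp1 rose by 0.67 in Ctrl and fell by 0.62 in Zeb2 KO, and Tcf7 fell by 0.44 in Ctrl and rose by 0.54 in Zeb2 KO. Over chromosome 8, which holds Sfrp1, the median difference between genotypes was 0.33 at d0 and -0.20 at d4. Its part in the Sfrp1 values was not tested.

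From d4 to d6 the change was more positive in Zeb2 KO for Wnt8a (2.72), Rspo1 (1.93), Lef1 (1.05), Tcf7l1 (0.53) and Fzd7 (0.45). It was more negative for Wnt1 (-3.79), Sfrp5 (-1.86), Dkk1 (-1.53), Wnt6 (-1.53), Fzd3 (-1.33), Fzd4 (-1.04) and Sfrp1 (-0.98). The differences of Fzd4, Lef1 from d4 to d6 and Wnt6 from d0 to d4 were called under 10, 17 and 15 of 26 alternatives. From d0 to d4 those of Sp5 and Fzd2 were lost with voom (adjusted p = 0.0388 and 0.0382), and that of Fzd6 with voom, both other scalings and without KO d4 replicate 3 (adjusted p up to 0.0314). From d4 to d6 that of Dkk1 was lost with voom (0.226) and a pseudocount of 0.1 (0.0200), that of Wnt6 with voom (0.0153), and those of Rspo1 and Sfrp5 with a pseudocount of 0.1 (0.0226 for each). Lef1 and Sfrp1 differed in the same direction at both steps, as did Fzd7 and Sfrp5, and Wnt6 in opposite directions.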

How the results depend on the processing

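Over the 9 comparisons 180 calls of members were made, of which 130 were called in the same direction under every alternative that could be computed, 153 without each single library, and none reversed. Calls kept were 171 with a pseudocount of 0.1, 169 with 5, all 120 testable with a minimum mean of 10 TPM, 170 with median-ratio factors, 156 with quantile normalization, 175 without the trend, 159 with the groups compared alone, and 165 with voom. For the other counts the cause of a move was not tested, except that the minimum of 10 TPM tests fewer genes and the fold limit asks for more. With the minimum mean of 10 TPM the calls between genotypes became 6 at d0 and 16 at d6, those from d4 to d6 in Ctrl 16, and the interactions from d4 to d6 7, also 7 with a pseudocount of 0.1. Quantile normalization left 11 between genotypes at d4. With an absolute log2 fold change above 1 as well, calls were 5 at d0 and 6 at d4 between genotypes, 16 in Ctrl and 11 in Zeb2 KO from d4 to d6, and 8 interactions from d0 to d4. Same-numbered Ctrl and KO libraries had deviations correlated at 0.15 to 0.23 for replicates 1 and 2 at each of the 3 days and at -0.08 to 0.05 for replicate 3, so that the numbers were not taken to pair all samples. Replicates 1 and 2 correlated best with their own number at each day. With the replicate number as a block, calls were 11, 18 and 23 between genotypes at d0, d4 and d6. The block lost the calls of Sfrp5 at d0, Lgr4 and Sfrp2 at d6, Fzd7 from d4 to d6 in Ctrl and the Fzd4 interaction (adjusted p 0.0112 to 0.0160). Wnt1 and other genes near 1 TPM are limited by depth, and their size on the log2 scale moved with the pseudocount.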
